A study of Mus musculus with 6 samples.

Results

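Line-dependent effects of PMA were measured as a difference of differences between 427 cells and cells labelled as an SPPL2b knockdown. For each locus, the log2 ratio of PMA to DMSO was taken in each line after 1 had been added to every FPKM (the unit of the deposited values, which is fragments per kilobase of transcript relative to library size). The ratio in the knockdown-labelled libraries was then subtracted from the ratio in 427 cells, and the result is called the difference below. A difference above 0 marks a locus whose PMA ratio was higher in 427 cells. Annotated loci were kept where any of the 4 libraries reached an FPKM of 1, which gave 10548 of the 21784 annotated loci, among 25001 loci in all. Newly assembled loci were kept apart, and 733 of 3217 passed the same minimum.

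PMA is a phorbol ester that stands in for diacylglycerol and activates protein kinase C isoforms. Protein kinase C drives ERK, AP-1 and NF-kappaB signalling and with it the transcription of immediate early genes, chemokines, cytokines, EGF family ligands and secreted proteases. PMA also switches on ectodomain shedding, in which membrane proteases cut off the outer part of membrane proteins such as epithin/PRSS14, the serine protease encoded by St14. SPPL2b is an intramembrane aspartyl protease that cuts the membrane stub left by shedding, and the released intracellular domain of epithin/PRSS14 is called EICD.

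The series compared PMA in both lines because PMA has effects other than shedding, and the knockdown-labelled cells were to account for these. The 427 line is a mouse thymoma line of epithelial character. The 427 control cells, with genotype labelled wild type, carried the empty pSUPER vector in stable form and were kept without serum for 2 h before 2 h with DMSO or with 1 µM PMA. Cells with the genotype label SPPL2b KD went through the same serum deprivation and received DMSO or PMA alike (SP2bKD). Another pair of libraries came from SP2bKD cells transfected with a GFP vector, either alone or together with Flag-tagged EICD, and sorted for GFP. The labels give an siRNA for the knockdown, whereas the methods of the study describe clones with a stable shRNA, and which clone gave the DMSO and PMA libraries is not stated. Effects of the knockdown and of picking a clone cannot be told apart. Each condition has 1 library, so no difference below has a replicate check, no p-value was computed, and each statement is about these libraries.

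The knockdown was checked first. Sppl2b (chromosome 10, 80853006 to 80868705, GRCm38) had an FPKM of 9.90 with DMSO and 6.86 with PMA in 427 cells, and of 13.4 and 9.37 in the SP2bKD libraries. The FPKM of the targeted locus was therefore higher, not lower, in both libraries labelled SP2bKD, with 1 library per condition. The paper presents its clones as knocked down from real-time PCR of SPPL2b mRNA. It also reports less EICD in them after PMA. Those data were not analysed here. Lsm7 (80852825 to 80855209), a gene of the Lsm ring on the other strand, overlaps the start of the Sppl2b locus. Reads from that stretch alone cannot be told apart without strand. Lsm7 had an FPKM of 69.5 with DMSO and 74.3 with PMA in 427 cells, and of 33.6 and 60.8 in SP2bKD cells. The part of this overlap in the Sppl2b values was not tested. Below, SP2bKD names libraries by their label only. Sequencing depth, estimated from the lowest FPKM steps, was 26600000 to 30300000 fragments in the 4 libraries. Of 8 epithelial markers 7 were measured, with a summed FPKM of 6641 to 9144, most of it Krt5 and Krt14. Summed FPKM was 0.430 to 1.28 for 7 T cell markers (Cd3e and Cd4 were listed at 0 in all 4 libraries), 0.185 to 0.518 for 6 fibroblast markers (Lum at 0), 6.40 to 8.69 for 5 macrophage markers (Adgre1 at 0) and 0.0477 to 0.0974 for 4 endothelial markers (Kdr at 0). The part of these markers in any difference was not tested. In such bulk libraries, a change in the number of expressing cells and a change per cell cannot be told apart.

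At most loci the PMA ratios of both lines were close. The median difference was 0.00 with an SD of 0.34 across loci, and 9780 of the 10548 loci (92.7%) lay within 0.5 of 0. The mean of both PMA ratios lay between -0.5 and 0.5 at 8354 of the 10548, so the closeness is largely that of loci with little mean change. A difference above 1, that is, a PMA ratio more than 2-fold higher in 427 cells, was found at 105 loci (0.995%), and a difference below -1 at 28 loci (0.265%). PMA itself raised 286 loci (2.71%) past 2-fold in the 427 line and 272 (2.58%) in the SP2bKD libraries, and 196 loci were in both groups. It lowered 182 loci (1.73%) in 427 cells and 259 (2.46%) in SP2bKD cells, of which 112 were shared. Just inside and outside the limits lay Pthlh at 1.00 and Eef1b2 at 0.997, and Ccdc28b at -1.02 and Arhgef40 at -0.994.

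**Figure D1:**
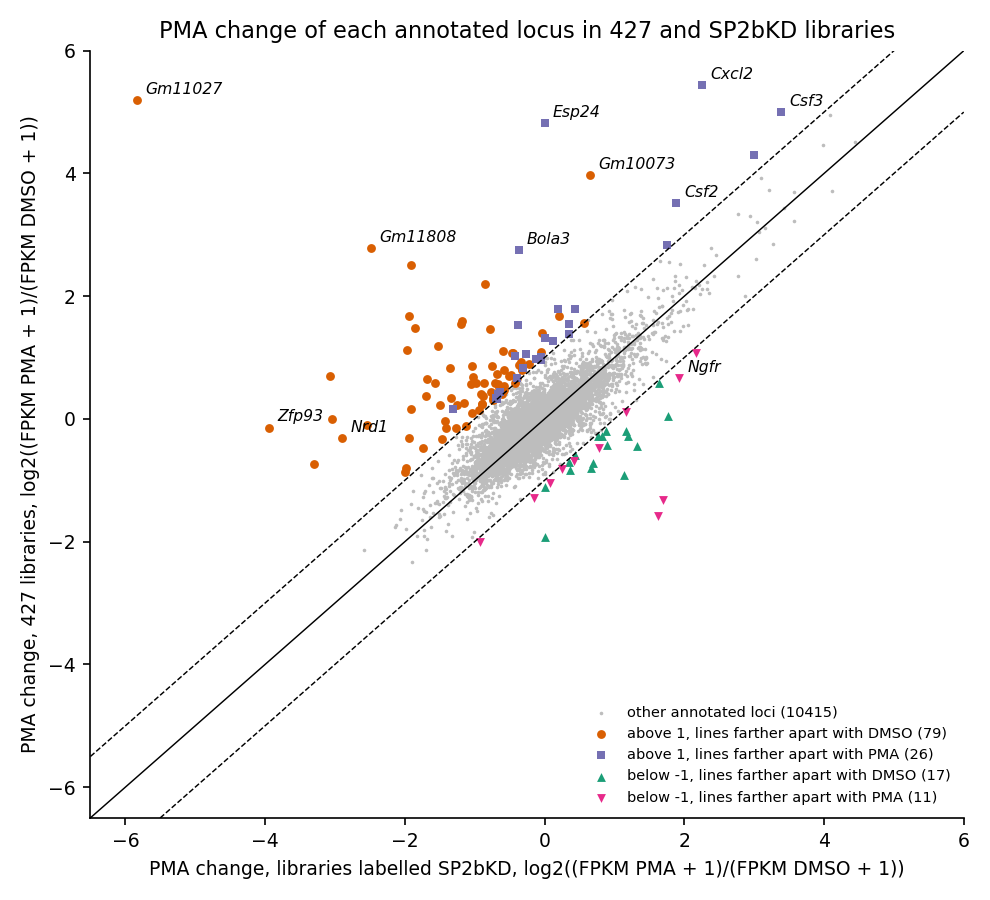
Each point is 1 of the 10548 annotated loci, with its PMA change (log2 of FPKM + 1) in SP2bKD libraries on the x axis and in 427 libraries on the y axis. The solid line marks equal change and the dashed lines a difference of 1 or -1; 105 loci lie above the upper dashed line, 28 below the lower one, and Cxcl2 and Csf3 stand above it among the strongest responders.

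Most of the loci with the highest mean PMA ratio responded in both lines. At 46 loci the mean of both PMA ratios was 2 or more on the log2 scale. The median difference there was 0.20, with 29 of the 46 above 0 (50.7% of all loci were), 7 above 1 and none below -1. Such a mean favours loci raised in both lines by the choice itself. The 46 still included Esp24, with PMA ratios of 4.82 in 427 cells and 0 in SP2bKD cells, and Gm10073, with 3.97 and 0.65. Il1a, which encodes an alarmin cytokine, had FPKM of 36.7 and 406 in 427 cells and 13.9 and 161 in SP2bKD cells, a difference of 0.00. Fosl1, an AP-1 subunit, had 4.71 and 73.8 against 1.92 and 49.5, a difference of -0.40. Cxcl5, a neutrophil chemokine, had FPKM of 21.8 and 195 in 427 cells and 8.98 and 88.3 in SP2bKD cells (-0.05). All 3 genes had a higher level in 427 cells with DMSO and with PMA, while the PMA ratios were close. The same was seen across the 46 loci, where 427 cells exceeded SP2bKD cells by a median log2 ratio of 0.55 with DMSO and 0.74 with PMA. Il1a, Fosl1 and Cxcl5 were picked after their values had been seen, as examples of a strong response.

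The 105 loci with a difference above 1 were of different kinds, which the distance between the lines in each condition set apart. At 26 loci the lines were farther apart with PMA than with DMSO, and at 79 they were farther apart with DMSO. Of the 26, the 427 library with PMA held the highest of the 4 values at 22, and the median log2 ratio of 427 to SP2bKD was -0.04 with DMSO and 1.37 with PMA. Of the 79, the SP2bKD library with DMSO held the highest value at 73 and the 427 library with DMSO the lowest at 59, and the median log2 ratio of 427 to SP2bKD was -1.56 with DMSO and 0.00 with PMA. The division uses the same 4 values as the difference and is a description only.

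**Figure D2:**
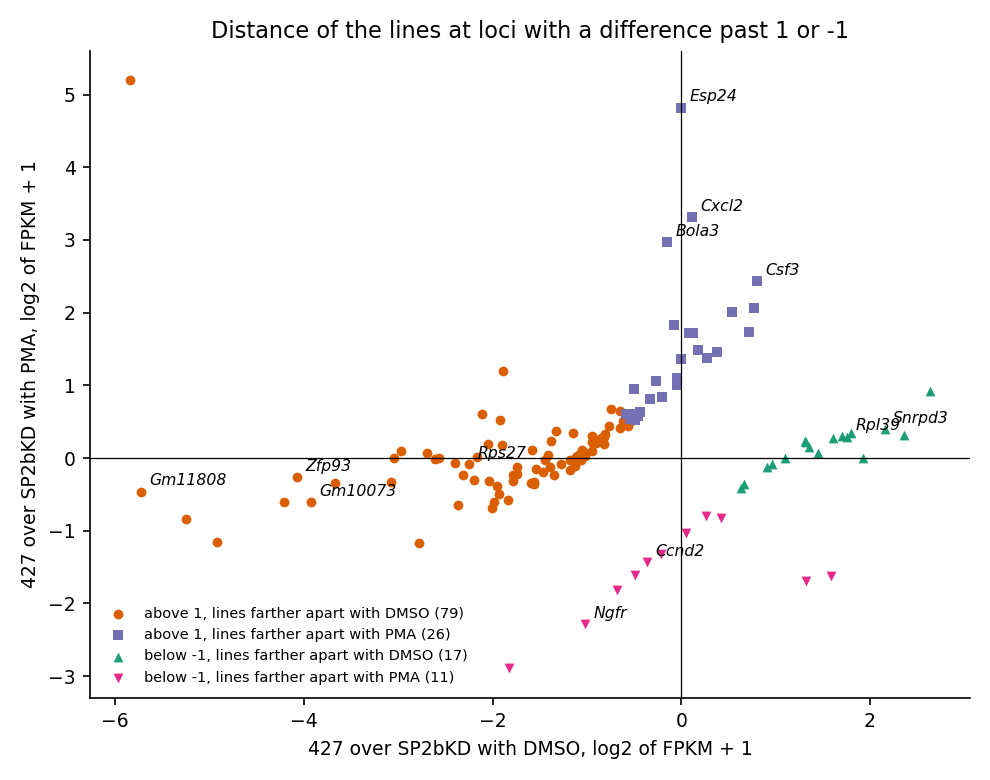
The 133 annotated loci with a difference above 1 or below -1, by the log2 ratio of 427 to SP2bKD with DMSO (x axis) and with PMA (y axis), FPKM + 1. The 26 squares lie near 0 with DMSO and are spread upward with PMA (Esp24 4.82, Cxcl2 3.31, Bola3 2.97), whereas the 79 circles are spread to the left with DMSO and all but 4 of them lie within 1 of 0 with PMA (Gm11027 at 5.2, CAAA01147332.1 at 1.2, Gas1 at -1.16 and Rpl10-ps3 at -1.15).

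Secreted signalling proteins led the loci at which the lines parted with PMA. Cxcl2, a chemokine that attracts neutrophils, Csf2 and Csf3, the colony-stimulating factors of granulocytes and macrophages, Mmp10, a secreted matrix metalloproteinase, and Atf3, a stress-induced transcription factor of the ATF/CREB family, were the list members with a difference above 1. Beside them stood Nppb, the precursor of B-type natriuretic peptide, F3, the tissue factor that starts coagulation, and Irg1, which encodes the itaconate-producing enzyme of activated macrophages. For 4 of the 5 list members, a promoter of 250 bases before the annotated start was in the RefSeq table (GRCm38.p6), and these sequences are given because these genes share a difference above 1. They read 5′ to 3′ on the strand of the gene, and capitals mark a motif match. The windows are chr5:90903649-90903898 (plus strand) for Cxcl2, chr9:7502092-7502341 (plus strand) for Mmp10, chr11:54249900-54250149 (minus strand) for Csf2 and chr1:191183334-191183583 (minus strand) for Atf3.
Cxcl2: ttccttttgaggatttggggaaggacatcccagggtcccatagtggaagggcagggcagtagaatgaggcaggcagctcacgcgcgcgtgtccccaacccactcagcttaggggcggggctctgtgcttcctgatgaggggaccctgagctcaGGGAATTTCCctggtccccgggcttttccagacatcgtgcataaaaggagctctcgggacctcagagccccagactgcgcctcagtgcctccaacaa
Mmp10: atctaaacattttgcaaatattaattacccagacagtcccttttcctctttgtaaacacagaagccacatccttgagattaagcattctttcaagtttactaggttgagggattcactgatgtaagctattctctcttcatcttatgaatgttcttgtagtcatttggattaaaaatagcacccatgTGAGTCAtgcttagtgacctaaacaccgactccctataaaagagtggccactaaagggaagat
Csf2: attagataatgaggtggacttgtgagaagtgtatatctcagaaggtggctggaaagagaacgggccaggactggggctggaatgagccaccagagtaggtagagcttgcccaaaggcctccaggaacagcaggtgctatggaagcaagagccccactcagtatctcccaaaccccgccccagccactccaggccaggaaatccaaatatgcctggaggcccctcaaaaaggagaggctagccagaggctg
Atf3: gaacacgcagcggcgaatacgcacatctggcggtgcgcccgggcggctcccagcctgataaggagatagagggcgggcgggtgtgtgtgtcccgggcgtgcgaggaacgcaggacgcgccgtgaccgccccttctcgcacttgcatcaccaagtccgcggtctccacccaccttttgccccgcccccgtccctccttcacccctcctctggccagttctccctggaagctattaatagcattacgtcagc

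The motifs searched on both strands were TGANTCA for AP-1, TGACGTCA for CRE and the NF-kappaB consensus by name, none of which contains another. The Cxcl2 window held the NF-kappaB consensus from 97 to 88 bases before the start, and the Mmp10 window held TGAGTCA from 63 to 57 bases before it. No match was found in the Csf2 and Atf3 windows. The Csf2 window begins at 54249900, whereas the measured locus, on the minus strand, starts at 54249667. The bases directly before that start were not searched. The Atf3 window lies inside the measured locus (191170296 to 191218039). Bases outside these windows were not searched, so motifs there are not excluded. Of all 27025 promoters of this length, 6.87% held the AP-1 motif, 1.62% the CRE and 4.78% the NF-kappaB consensus. Of the 26 loci above, 20 had a promoter in the table, with the AP-1 motif in 3, the CRE in 1 and the NF-kappaB consensus in 3. A match is a run of letters and not evidence of binding.

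Cxcl2 (chromosome 5, 90903871 to 90905938) gave the highest difference of any list member. Its FPKM was 0.134 with DMSO and 48.2 with PMA in 427 cells, and 0.0450 with DMSO and 3.96 with PMA in SP2bKD cells. The 427 library with PMA thus stood far above the other 3, which lay at or under 3.96. The PMA ratio was 5.44 in 427 cells and 2.25 in SP2bKD cells (log2), a difference of 3.19 ± 0.12, where the error is the counting error from estimated fragments alone and is a lower estimate. In SP2bKD cells with PMA the value stood for an estimated 228 fragments, and with DMSO for 2.29. The difference was 2.88 with 0.1 and 2.21 with 0.01 added to each FPKM, so it moved by more than the counting error.

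The 6 other CXC and CX3C chemokine ligands that were measured did not pass 1. Cxcl10, an interferon-inducible chemokine for T cells, had FPKM of 0.296 and 4.78 in 427 cells and 0.130 and 1.76 in SP2bKD cells (difference 0.87). Cxcl1 had 28.1 and 638, against 9.65 and 168 (0.47). For Cxcl3 the difference was 0.27, for Cxcl5 -0.05, for Cxcl16 -0.28 and for Cx3cl1, the membrane-bound fractalkine, -0.47. PMA raised all 7 measured members more than 2-fold in both lines, and 4 of 7 had a difference above 0, where 50.7% of all loci did. The median of 0.27 turned to -0.12 when 0.1 instead of 1 was added to each FPKM, as Cxcl3 turned to -0.56. Among CC chemokine ligands, all 5 measured members had a difference above 0 and none passed 1, with a median of 0.22. Ccl20, a chemokine for CCR6-bearing cells, was listed at 0 with DMSO in 427 cells and rose to 29.8, and went from 0.0662 to 17.0 in SP2bKD cells (0.87). With 0.1 and 0.01 added it passed 1, at 1.54 and 3.74. Ccl2, a monocyte chemokine, had 13.5 and 91.1 in 427 cells and 0.496 and 7.17 in SP2bKD cells, so that 427 cells had the higher level in both conditions. Its difference of 0.22 came from adding 1, and was -0.86 with 0.1 and -1.07 with 0.01 added.

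Csf3 (chromosome 11, 98700158 to 98703843) had an FPKM of 1.54 with DMSO and 80.5 with PMA in 427 cells, and of 0.453 and 14.1 in SP2bKD cells, a difference of 1.62 ± 0.18. Csf2 (chromosome 11, 54247271 to 54249667) had 0.0578 and 11.1 in 427 cells, was listed at 0 in SP2bKD cells with DMSO and had 2.67 there with PMA. Both genes were highest in 427 cells with PMA and second in SP2bKD cells with PMA, well above either DMSO library. The Csf2 difference of 1.64 ± 0.22 rests on the amount added, since with 0.01 added it was -0.71. The difference of Csf3 was 0.93 with 0.1 and 0.77 with 0.01 added. Of the other members of this list, Csf1, the macrophage colony-stimulating factor, had 18.2 and 54.7 against 13.8 and 60.2 (-0.51), Il23a had a difference of 0.34, and Kitl had -0.14. PMA raised 4 of the 5 members more than 2-fold in each line.

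Nppb (chromosome 4, 147985788 to 147987205) had FPKM of 3.25 and 82.3 in 427 cells and 1.48 and 18.9 in SP2bKD cells, a difference of 1.29 ± 0.24. Like Csf3, it was raised in both lines and more in 427 cells. F3 had 21.7 and 43.7 in 427 cells and 17.8 and 16.3 in SP2bKD cells, a difference of 1.1 ± 0.09. Irg1 had 0.0875 and 2.77 in 427 cells, was listed at 0 with DMSO in SP2bKD cells and had 0.144 there with PMA (1.60, but 2.65 with 0.1 and 0.89 with 0.01 added). F3 and Irg1 were thus set apart by the 427 library with PMA, with the other 3 libraries close together. Nppb, F3 and Irg1, and below S100a9, Mycbp, Mxd1, Eif2b2, Tor2a, Elf3, P2rx3, Zfp691, Rps27, Cox7c, Lsm5, Rpl36, Rpl34, Atp5b, Nrd1, Stag2, Ctgf, Nr4a3, Tnfaip3, Dusp6, Rhbdf1, Dhcr7 and Mmp3, and above Gas1, Cxcl3, Cxcl16, Cx3cl1 and Ccl2, lie outside the rule by which genes were named and were picked after their values had been seen.

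Mmp10 (chromosome 9, 7502352 to 7510238) had FPKM of 0.184 and 3.10 in 427 cells and 0.182 and 0.591 in SP2bKD cells, a difference of 1.36 ± 0.18. The DMSO values were close, and 427 cells with PMA had the only value above 1. Of the 10 measured metalloproteinases and inhibitors, it was the only one past 1, which Mmp12 and Mmp13 also passed with 0.1 added (1.1 and 1.14). Mmp13, a collagenase, had 0.402 and 7.35 against 0.443 and 3.55 (0.92), and Mmp12, the macrophage elastase, had 2.25 and 3.61 against 2.76 and 2.01 (0.83). Mmp3, a stromelysin like Mmp10, had a difference of 0.28. The list median was 0.10, or -0.01 with all libraries scaled to a common FPKM sum. Plau, the urokinase-type plasminogen activator, had 28.5 and 78.6 in 427 cells and 24.8 and 38.2 in SP2bKD cells (0.82), whereas its receptor gene Plaur was raised alike, from 24.1 to 232 and from 13.3 to 117 (0.18).

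**Figure D3:**
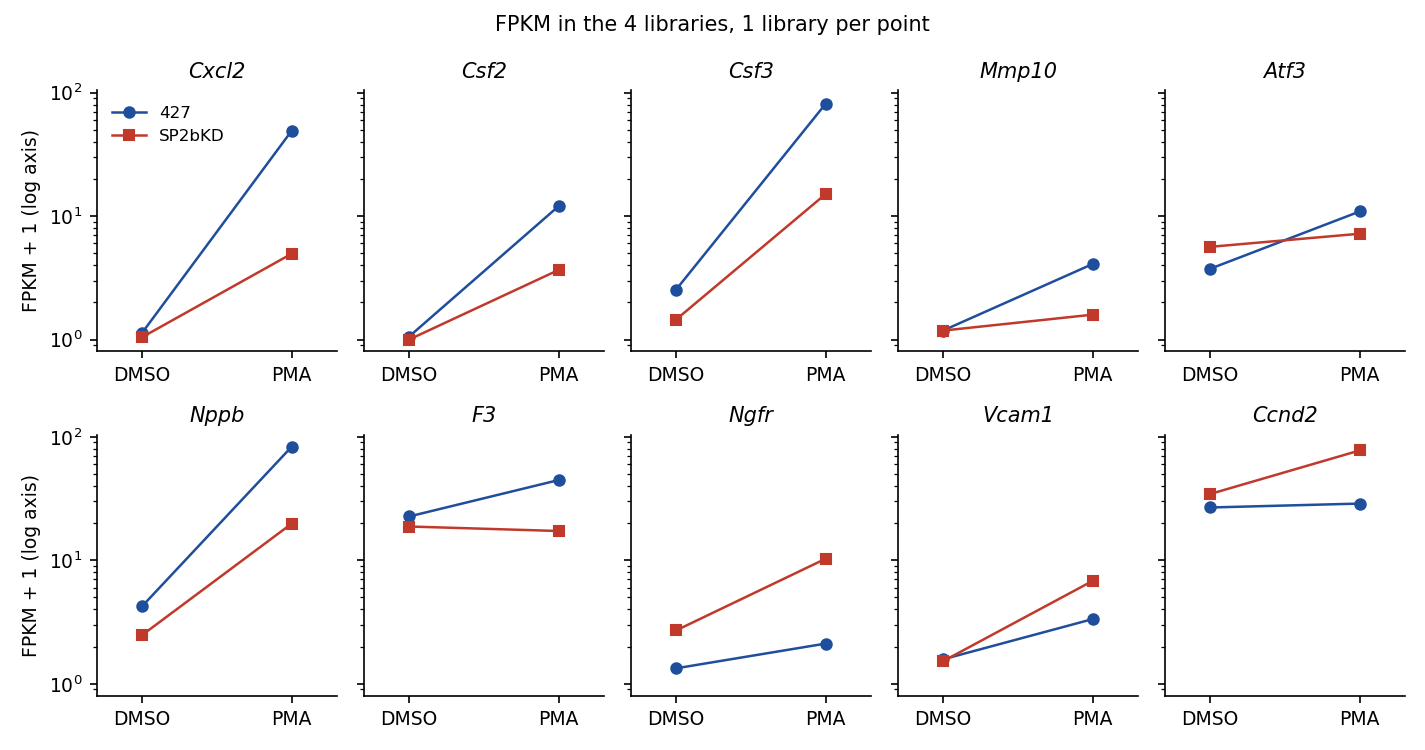
FPKM + 1 on a log axis with DMSO and PMA for 10 genes, circles for 427 and squares for SP2bKD, 1 library per point. In Cxcl2, Csf2, Csf3, Mmp10, Nppb and F3 the circle with PMA is the highest point; in Ngfr, Vcam1 and Ccnd2 the square with PMA is.

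At some other loci among the 26 the PMA ratio in SP2bKD cells was close to 0 or below it, such as -0.37 for Bola3 and S100a9 and 0.13 for Mxd1. Bola3, which takes part in iron-sulfur cluster assembly in mitochondria, had FPKM of 7.17 and 54.2 in 427 cells and 8.08 and 6.03 in SP2bKD cells, a difference of 3.13 ± 0.11. S100a9, a calgranulin subunit, had 0.890 and 4.48 against 0.998 and 0.541 (1.91 ± 0.44, from an estimated 6.01 to 50.1 fragments). Esp24, which encodes an exocrine gland secreted peptide, had 27.2 in 427 cells with PMA and was listed at 0 in the other 5 libraries of the series. Mycbp, a MYC-binding protein gene, had 21.7 and 55.7 against 19.1 and 19.1 (1.32), and Mxd1, a MAX partner that opposes MYC, had 6.89 and 18.1 against 8.93 and 9.84 (1.15). P2rx3 was set apart by a fall in SP2bKD cells, from 3.69 to 0.889, while 427 cells had 5.80 and 6.57 (1.47). In a further group both lines moved in opposite ways by less than 2-fold. Eif2b2, a subunit of the translation factor eIF2B, had 67.4 and 92.1 in 427 cells and 94.5 and 60.2 in SP2bKD cells (1.09), and Tor2a (1.08) and Elf3, an epithelial ETS factor (1.02), had the same pattern.

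Transcription factors of the immediate early response leaned the same way in part. Atf3 (chromosome 1, 191170296 to 191218039) had FPKM of 2.74 and 9.91 in 427 cells and 4.63 and 6.2 in SP2bKD cells, a difference of 1.19 ± 0.15. It was the 1 of 11 measured AP-1 and small Maf factors past 1. Fosb had 0.463 and 4.63 against 0.445 and 1.83 (0.97), and Fos had 1.11 and 5.93 against 0.823 and 2.54 (0.76). These 3 factors were all highest in 427 cells with PMA. PMA raised 6 of the 11 factors past 2-fold in the 427 line and 3 in the SP2bKD libraries. The median difference was 0.18, with 7 of 11 above 0, where 50.7% of all loci were. The nuclear receptors of the Nr4a family had differences of 0.96 (Nr4a2), 0.84 (Nr4a1) and 0.77 (Nr4a3). Egr1, a zinc finger factor of the same response, went the other way, with 10.3 and 8.63 in 427 cells against 5.02 and 9.14 in SP2bKD cells (-0.98). With upper quartile scaling and with a common FPKM sum it passed -1, at -1.02 and -1.07, and with 0.1 and 0.01 added, at -1.10 and -1.11. The 9 members of that list had a median of 0.36, which was 0.11 with 0.1 added.

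Growth factors and cytokines had smaller differences. Of 7 EGF family ligands, 6 were raised more than 2-fold in each line, 5 had a difference above 0 (50.7% of all loci did) and none passed 1. Ereg, which encodes epiregulin, had 0.469 and 5.24 in 427 cells and 0.233 and 1.80 in SP2bKD cells (0.90), and Areg, which encodes amphiregulin, had 3.41 and 57.7 against 0.929 and 16.9 (0.52). Nrg1, a neuregulin, went the other way with 15.4 and 43.5 against 6.21 and 26.6 (-0.50). The list median was 0.30, or -0.10 with 0.01 added. Lif, a cytokine of the IL-6 family, had 11.9 and 129 against 6.40 and 49.3 (0.57), and Socs1, a feedback inhibitor of cytokine receptors, had -0.53. Among 6 measured genes of the interleukin-1 family the differences ran from -0.28 to 0.38. Ptgs2, the inducible cyclooxygenase, had 86.5 and 286 in 427 cells and 56.6 and 111 in SP2bKD cells (0.75), whereas the other 5 measured prostaglandin genes lay between -0.14 and 0.13.

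No measured member of the NF-kappaB, feedback regulator, TNF superfamily and shedding protease lists passed 1 or -1. The 10 measured NF-kappaB subunits and inhibitors lay between -0.21 and 0.31, with 6 raised past 2-fold in the 427 line and 5 in the SP2bKD libraries. Nfkbia, which encodes the inhibitor IkappaB-alpha, had 21.2 and 53.3 against 20.2 and 40.6 (0.31), and Relb, a subunit of the alternative NF-kappaB dimer, had 4.34 and 22.1 against 3.93 and 23.7 (-0.21). Relb and Tnfaip3, a deubiquitinase that restrains NF-kappaB (-0.19), were thus raised to like levels in both lines. The 9 dual-specificity phosphatases, which switch off MAP kinases, ran from -0.34 (Dusp6) to 0.64 (Dusp1), and 6 sprouty, Spred and Errfi1 genes from -0.43 (Spry1) to 0.31 (Errfi1). The 7 TNF superfamily genes ran from -0.01 to 0.55 (Tnfsf15). For the proteases of the shedding pathway, differences were 0.00 for St14, -0.15 for Adam17, 0.04 for Sppl2a, 0.00 for Sppl2b and -0.09 for Sppl3, and the 11 measured genes of that list lay between -0.17 (Rhbdf1) and 0.28 (Rhbdf2). St14 had FPKM of 85.6 and 105 in 427 cells and 81.8 and 100 in SP2bKD cells, so that both lines held it at a like level.

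Some gene groups leaned toward lower PMA ratios in 427 cells. Of 17 measured cholesterol and fatty acid synthesis genes, 15 had a difference below 0 and none passed -1, where 49.3% of all loci were below 0. Scd2, a stearoyl-CoA desaturase, had an FPKM of 287 and 75 in 427 cells and of 572 and 278 in SP2bKD cells (-0.88). Idi1 had 59.8 and 36.0 against 121 and 110 (-0.57), and Lss, lanosterol synthase, had 35.1 and 11.7 against 81.2 and 41.0 (-0.54). All 3 were lower in 427 cells in both conditions and lowest there with PMA. The median PMA ratio of the list was -0.55 in 427 cells and -0.38 in SP2bKD cells. The median difference was -0.24, and it was -0.34 with a common FPKM sum. That scaling also lowered genes outside the list, such as St14 (0.00 to -0.10) and Adam17 (-0.15 to -0.26). Dhcr7, a reductase at the end of cholesterol synthesis, was an exception at 0.43. Of 8 Notch receptors, ligands and Hes targets, 7 were below 0, led by the ligand gene Dll1, with 64.5 and 12 against 61.3 and 15.6 (-0.44).

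Single members of other lists came close to the limits. Ccnd1, which encodes cyclin D1, had 23.8 and 97.8 in 427 cells and 15.8 and 121 in SP2bKD cells (-0.87). Hspa5, the endoplasmic reticulum chaperone BiP, had 603 and 462 against 350 and 485 (-0.86), with PMA ratios of -0.38 in 427 cells and 0.47 in SP2bKD cells. Cdkn1a, the p53 target that encodes p21, had 60.9 and 108 against 42.5 and 43.9 (0.78). Slc2a1, a glucose transporter gene, had 31.3 and 54.1 against 36.0 and 34.7 (0.83). Oasl2, an interferon-stimulated gene, had low values of 1.13 and 0.486 against 0.345 and 0.731 (-0.88). With 0.1 and 0.01 added Oasl2 passed -1, at -1.97 and -2.26. Among 17 genes of the integrated stress response 14 had a difference above 0, where 50.7% of all loci did. None of the 17 passed 1, and the median was 0.16. Atf5 (0.73) led them, with 17.4 and 20.2 in 427 cells and 10.6 and 7 in SP2bKD cells. Over all 32 lists, whose members were chosen with earlier results of these data known, 5 of the 304 measured members (1.64%) were above 1 and none below -1, shares near the 0.995% and 0.265% of all loci. With 0.1 added 12 (3.95%) were above 1 and 3 (0.987%) below -1, against 1.75% and 0.73% of all loci.

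**Figure D4:**
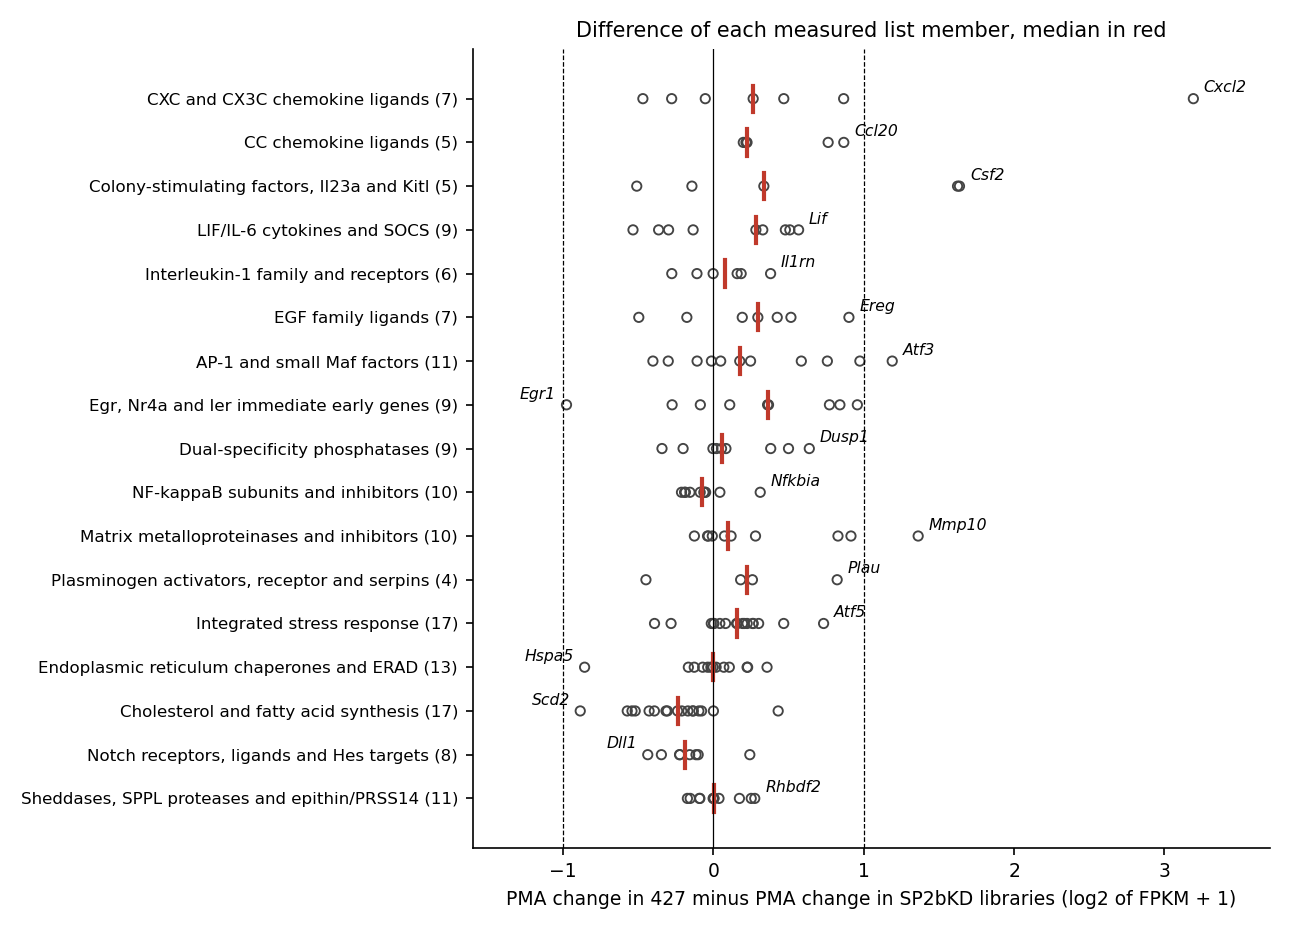
Difference (PMA change in 427 minus PMA change in SP2bKD, log2 of FPKM + 1) of each measured member of 17 gene lists, 1 circle per gene, with the list median in red and the number of measured members in brackets. Cxcl2, Csf2, Csf3, Mmp10 and Atf3 lie to the right of the dashed line at 1, and no circle lies left of -1.

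At 28 loci the PMA ratio was more than 2-fold higher in SP2bKD cells, and at 11 of these the lines were farther apart with PMA. Ngfr, the low-affinity neurotrophin receptor, had an FPKM of 0.335 and 1.12 in 427 cells and of 1.71 and 9.32 in SP2bKD cells, a difference of -1.26 ± 0.13. Vcam1, an adhesion molecule for leukocytes, had 0.579 and 2.35 against 0.526 and 5.83 (-1.08 ± 0.12). Ccnd2, which encodes cyclin D2, had 25.8 and 27.8 against 33.4 and 76.7 (-1.07 ± 0.04). In each of these 3 genes the SP2bKD library with PMA was the highest of the 4. Runx3, a Runt-family transcription factor, had 16.3 and 8.87 against 13.5 and 16.1 (-1.05), so that it was lowest in 427 cells with PMA. Ngfr weakened to -0.90 with 0.1 and -0.73 with 0.01 added. S100z (-3.22) and Defb3 (-3.01), of the S100 and beta-defensin families, were listed at 0 in 427 cells with PMA and in SP2bKD cells with DMSO and lay between 1.5 and 2.22 in the other libraries, from an estimated 5.08 to 15.6 fragments. Vcam1, Ccnd2 and Runx3 were named after their values had been seen.

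The 79 loci at which the lines parted with DMSO included many short loci and gene copies. Of these, 31 (39.2%) carried names of predicted genes or of pseudogene and related-sequence copies, against 1.51% of all 10548 loci, and 13 (16.5%) had a pseudogene biotype, against 0.294%. Of the 77 with an annotated transcript, 31 (40.3%) had none of 1000 bases or more, against 4.31%. Short transcripts were also frequent at the 26 loci at which the lines parted with PMA (8 of 25, or 32%) and at the 28 loci below -1 (8 of 26, or 30.8%), and names of the above kinds made up 3.85% and 21.4% there. Gm11808 (chromosome 4, 3973092 to 3973595) had FPKM of 0.107 and 6.62 in 427 cells and 57.8 and 9.5 in SP2bKD cells, a difference of 5.27 ± 0.28. Gm10073 had 4.40 and 83.7 against 81.0 and 128 (3.32), with only 427 cells with DMSO standing apart. Rpl10-ps3, a copy of a ribosomal protein gene, had 0.127 and 0.830 against 33.1 and 3.06 (3.77). Reads of such copies and of their parent genes can be near identical, and how the authors' tools divided them is not given in the sources used here, so that these values are uncertain.

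Protein-coding genes of high level were among the 79 as well. Rps27, a protein of the small ribosomal subunit, had FPKM of 614 and 925 in 427 cells and of 2914 and 982 in SP2bKD cells, a difference of 2.16 ± 0.02. Cox7c, a subunit of cytochrome c oxidase, had 271 and 436 against 681 and 336 (1.70), and Lsm5, a member of the Lsm ring of RNA decay and splicing, had 59.9 and 94.1 against 319 and 99.1 (2.32). In all 3 genes the SP2bKD library with DMSO was the highest, 427 cells with DMSO were the lowest, and the libraries with PMA were close to each other. Rpl36 (1.17), Rpl34 (1.05) and Atp5b, the beta subunit of ATP synthase (1.04), had the same order. Others were set apart by SP2bKD cells with DMSO alone. Nrd1, which encodes the metalloprotease nardilysin, had 61.9, 49.8 and 50.3 in the other libraries and 382 there (2.59), and Zfp93, a zinc finger gene, had 1.46 to 1.96 and 44.6 (3.80). Stag2, a cohesin subunit, had 138 to 207 and 549 (1.25).

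The GFP library, also made from SP2bKD cells and used by none of the differences above, gave a further value for these loci. At 64 of the 79 (81%) its level was nearer to that of SP2bKD cells with PMA than to SP2bKD cells with DMSO. The 79 were chosen with these values, and SP2bKD cells with DMSO were the highest of the 4 libraries at 73 of them, so that a further library lies nearer to the value with PMA by the choice itself, and the count is a description. Rps27 had 1225 there and Nrd1 54.3, near the 982 and 50.3 of SP2bKD cells with PMA. Zfp93 was an exception with 37.2, near the 44.6 of SP2bKD cells with DMSO, and 2.20 with EICD. The GFP library also differs by transfection, sorting and serum, and Fos had 148 there against 0.823 in SP2bKD cells with DMSO. With the GFP library in place of SP2bKD cells with DMSO, 275 loci were above 1 and 183 below -1, and these held 24 of the 79 loci and 17 of the 26 at which the lines parted with PMA. Cxcl2, Csf2, Csf3, Mmp10 and Atf3 were among the 17. The swap removes the SP2bKD value with DMSO, by which most of the 79 stood apart. It keeps both PMA libraries, by which the 26 stood apart. A higher GFP level also raises the difference, as for Atf3 (33.0 against 4.63 with DMSO) and Cxcl2 (1.24 against 0.0450). Mmp10 was lower there (0 against 0.182). These counts are therefore a description only.

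The mirror image was seen at 17 of the 28 loci below -1, where the lines were farther apart with DMSO. Rpl39, a protein of the large ribosomal subunit, had FPKM of 1053 and 871 in 427 cells and of 311 and 710 in SP2bKD cells, a difference of -1.46 ± 0.03. Snrpd3, a core protein of the spliceosome, had 205 and 151 against 45.2 and 114 (-1.76), and Rpl27a had 510 and 378 against 167 and 311 (-1.33). These genes were lowest in SP2bKD cells with DMSO, which held the lowest value at 14 of the 17 loci, and highest in 427 cells with DMSO, as at 15 of the 17. Ctgf, a matricellular growth factor, was unlike them, with 35.9 and 54.6 against 18 and 58.0 (-1.04), since it was higher with PMA in both lines and at like levels. Ribosomal protein genes therefore lay on both sides of the limits. Of 166 loci with ribosomal protein in their description, 6 were above 1 (3.61%, against 0.995% of all loci) and 3 below -1 (1.81%, against 0.265%). Copies of such genes were not set apart in this count.

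Transcript length went with the difference over all loci. The share past 1 or -1 was 27.5% at the 80 loci whose longest annotated transcript was under 600 bases, 5.1% from 600 to under 1200 bases, 1.79% from 1200 to under 2500, 0.592% from 2500 to under 5000 and 0.253% at 5000 bases or more. The median difference fell along the same bands from 0.41 through 0.17, 0.05 and 0.00 to -0.04. Of the list members above 1, Csf2 (800 bases) lies in a band with a median of 0.17, and Csf3 (1413), Mmp10 (1722), Atf3 (1984) and Cxcl2 (2066) lie in the band with 0.05. Restricted to transcripts of 1000 bases or more, 63 of 9677 loci were above 1 and 18 below -1. The part of transcript length in single differences was not tested.

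**Figure D5:**
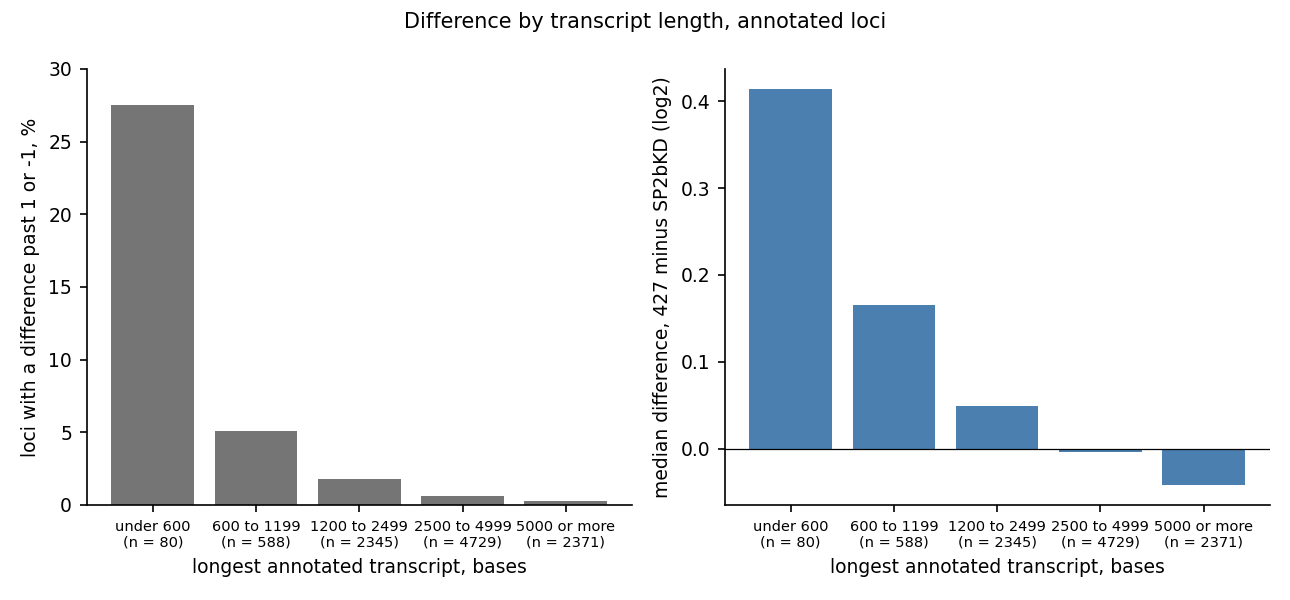
Share of annotated loci with a difference past 1 or -1 (left, percent) and median difference (right, log2) by length of the longest annotated transcript, with the number of loci under each bar. The share is 27.5% under 600 bases and 0.253% at 5000 bases or more, and the median passes from 0.41 to -0.04.

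Expression of EICD in SP2bKD cells was measured in libraries that no difference uses. The ratio of GFP plus EICD to GFP was above 1 (log2 of FPKM + 1) at 152 of the 10548 loci (1.44%) and below -1 at 15 (0.142%). Of the 26 loci at which the lines parted with PMA, 5 (19.2%) were above 1 and 20 (76.9%) above 0, against 57.6% of all loci above 0. The 5 were Cxcl2, with FPKM of 1.24 with GFP and 10.8 with EICD (2.40), Atf3, with 33.0 and 121 (1.84), P2rx3, an ATP-gated channel gene, with 7.29 and 23.5 (1.56), Csf3, with 0.505 and 3.05 (1.43), and Nppb, with 3.39 and 10.7 (1.41). Of the 79 loci at which the lines parted with DMSO, none was above 1 and 25 (31.6%) were above 0. Of the 28 below -1, 1 was above 1, namely Zfp691 at 1.25. Of all 105 loci above 1, the 5 were 4.76%. With 0.1 added, 18 of 185 (9.73%) were above 1 with EICD, against 2.73% of all loci, and at an FPKM of 10 or more 3 of 70 (4.29%) were, against 1.02%. Large EICD ratios also stood at loci with a difference near 0. Of the 17 measured genes of the integrated stress response, 13 were above 1 with EICD and none passed 1 in the difference. Of the 7 CXC and CX3C chemokine ligands, all raised by PMA in both lines, 5 were above 1 with EICD. Only Cxcl2 of these 7 passed 1 in the difference. Among CC chemokine ligands 1 of 5 was above 1 with EICD (Ccl20, 3.65), and among EGF family ligands 1 of 7. The 26 loci were compared with all loci and not with loci raised alike by PMA. Whether their EICD share goes with the difference or with the PMA response was not tested.

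Newly assembled loci were more spread than annotated ones. Of 733 such loci, 72 (9.82%) had a difference above 1 and 38 (5.18%) below -1, with an SD of 1.05. The highest was a locus of 146 bases on chromosome 6 (20924587 to 20924732), listed at 0 in 427 cells with DMSO and with FPKM of 887, 4975 and 2727 in the other 3 libraries. The lowest, on chromosome 12 (87922311 to 87922433), was listed at 0 in SP2bKD cells with DMSO and had 30545, 22284 and 10544 in the others. A locus on chromosome 7 (47737803 to 47828120) had 34.9, 46.3 and 31.1 and was listed at 0 in SP2bKD cells with PMA (5.40). At each of these 3 loci a single library at 0 set the difference.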

How the data were processed

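RNA of the 427 thymoma line was sequenced as 6 paired-end poly(A) libraries, 1 per condition. The authors mapped reads with Tophat and computed FPKM with Cufflinks and Cuffdiff on GRCm38, and they deposited 1 FPKM value per locus and library. Versions in the submitters' processing notes are TopHat2 2.1.1, Cufflinks 2.1.1 and Cuffdiff 2.1.1, and STAR 2.4.0b is listed with no stated role. FPKM depends on the gene models and on the fragments per library, so that short loci, overlapping genes and near-identical copies can take fragments that are not their own.

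From the deposited FPKM, 1 was added to each value, log2 ratios were taken with Python 3.11.15, NumPy 2.4.6 and pandas 2.3.3, and plots were drawn with matplotlib 3.10.9. Groups were taken from the sample labels. With 1 library per condition no test was run, and a locus was counted when its difference passed 1 or -1. The arithmetic was checked on simulated data. Depth was estimated from the steps of low FPKM values of genes with a single transcript over 2500 bases, after 150 bases had been taken off each transcript. Fragments per gene, from the longest transcript, are upper estimates, so the counting errors are lower estimates and leave out biological spread. Transcript lengths and biotypes are those of GENCODE vM21, also on GRCm38.

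Named genes were the 12 highest and 12 lowest annotated loci of at least 300 bases, the 8 highest and 8 lowest at an FPKM of 10 or more, the 3 largest members of each of 32 gene lists and all members of lists of 8 or fewer, loci past 2-fold in opposite directions, the proteases St14, Adam17, Sppl2a, Sppl2b and Sppl3 with Lsm7, and the 3 highest and 3 lowest newly assembled loci. Not all of them are reported here. The members, lists and limits were chosen with earlier results of these data known. Of the list symbols, 13 had no locus of that name. Alternatives were 0.1 or 0.01 added, minima of 0.1 or 10, scaling to the upper quartile, to a common FPKM sum or by median-of-ratios factors, and 2 chosen after seeing the data, the GFP library as SP2bKD baseline and transcripts of 1000 bases or more. The migration, protein and patient data of the study were not analysed here.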

Additional observations from a re-analysis of the deposited data

Results flagged for a closer look

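At 11 annotated loci PMA moved the lines past 2-fold in opposite directions. With 1 library per condition these opposite changes were not tested. The differences were 11.04 for Gm11027, 5.27 for Gm11808, 4.42 for Gm10269, 3.62 for Gm10146, 3.33 for Gm10135, 3.09 for CAAA01147332.1, 2.77 for Gm10197, 2.74 for Gm6169 and 2.72 for Gm10226, which were all higher with PMA in 427 cells and lower in SP2bKD cells, and -3.22 for S100z and -3.01 for Defb3, which went the other way. Gm11027 had an FPKM of 35.7 in 427 cells with PMA and 56.3 in SP2bKD cells with DMSO and was listed at 0 in the other 4 libraries of the series, from a transcript of 198 bases.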

How the results depend on the processing

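No paired analysis was possible because each condition has 1 library. The median difference stayed between -0.09 and 0.00 under all alternatives. Counts of annotated loci above 1 and below -1, 105 and 28 as reported, were 185 and 77 with 0.1 added and 197 and 103 with 0.01 added, 70 and 16 at an FPKM of 10 or more, 109 and 30 at 0.1 or more, 96 and 34 with upper quartile scaling, 85 and 42 with a common FPKM sum and 101 and 30 with median-of-ratios scaling. The alternatives chosen after seeing the data gave 275 and 183 with the GFP library as SP2bKD baseline, with 41 and 11 loci shared, and 63 and 18 for transcripts of 1000 bases or more. Of the loci above 1, those also above 1 with EICD numbered 5 as reported, 18 and 27 with 0.1 and 0.01 added, 3 at an FPKM of 10 or more and 22 with the GFP library. Newly assembled loci above 1 and below -1 numbered 126 and 73 with 0.1 added, 130 and 89 with 0.01 added, 45 and 17 at an FPKM of 10 or more, and 3 and 5 with 1000 bases or more, where few have a length, and those below -1 were 78 with the GFP library. Among the single loci described with a difference past 1 or -1, Csf2 turned to -0.71 with 0.01 added, because SP2bKD cells with DMSO are listed at 0, and with the GFP library Rpl10-ps3 turned to -0.40, Nrd1 to -0.20 and Ccnd2 to 0.54 (the cause was not tested). Of those within 1 of 0, 6 changed sign with 0.1 added and 6 with 0.01, among them Ccl2 to -1.07, Cxcl3 to -1.44, Mmp3 to -0.50 and Areg to -0.10 with 0.01. With the GFP library 19 did, among them Egr1 (2.92), Dusp6 (2.55), Il1a (2.36), Fosl1 (2.20), Cxcl5 (2.02), Nrg1 (1.89), Tnfaip3 (1.2) and Ccnd1 (0.82). The scalings changed the sign of St14, Sppl2a and Sppl2b, all near 0, and of no other of these loci. With 0.1 added Ccl20, Fosb, Mmp12, Mmp13, Nr4a2 and Nr4a3 passed 1, at 1.1 to 1.91. Oasl2, Egr1 and Arhgef40 then passed -1, at -1.97, -1.10 and -1.08. With a common FPKM sum F3, Eif2b2, Tor2a, Elf3, Rpl34, Atp5b and Pthlh came to between 0.90 and 1.00, and Egr1 and Arhgef40 passed -1, at -1.07 and -1.09. Scaling to a common sum changed the sign of 8 of 35 list medians, none of them over 0.2 in size. Low FPKM and short transcripts limit single differences, and the lack of replicates limits all of them.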
